A study of Homo sapiens with 6 samples.

Results

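Quiescent stellate cell identity genes are the genes by which the resting, vitamin A-storing hepatic stellate cell is recognised, and 9 of them were examined here for occupancy by the zinc finger protein ZNF469. They were LRAT, HGF, PPARG, LHX2, NGFR, HAND2, RELN, NR1H4 and GATA4, chosen by name out of 20033 protein-coding genes, and each was taken as its gene body plus 50 kb on either side (its window). Full-length ZNF469 had 13 enriched regions, called records here, in the windows of 6 of the 9 genes, out of 19108 records genome-wide. HGF had 1, PPARG, LHX2 and RELN had 2 each, and NR1H4 and GATA4 had 3 each. LRAT, NGFR and HAND2 had none. The 6 of 9 stood near the 65.1% of all protein-coding genes with a full-length record in their window. A protein lacking most of its zinc fingers had no record in any of the 9 windows. Its list has only 54 records, and 0.21% of protein-coding genes had one in their window, so this says nothing particular about the 9.

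The resting stellate cell of the liver stores vitamin A as retinyl esters, which LRAT (lecithin retinol acyltransferase) forms from retinol, and on injury it loses these stores, turns down its resting programme and becomes a matrix-producing myofibroblast. PPARG and NR1H4 are ligand-activated nuclear receptors, the latter better known as the bile acid receptor FXR, and LHX2, HAND2 and GATA4 are developmental transcription factors linked to the resting stellate cell. HGF is the growth factor that stellate cells supply to hepatocytes, NGFR is the low-affinity neurotrophin receptor p75, and RELN is the secreted glycoprotein reelin.

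The experiment used LX-2 cells, a human hepatic stellate line that grows indefinitely in culture and resembles the activated rather than the resting cell, so that the resting programme was looked at outside the resting cell. Both groups carried a doxycycline-inducible transgene and had been given doxycycline at 1 µg/mL for 24 h before CUT&RUN, in which an antibody, here against ZNF469, directs a nuclease to cut out the DNA it sits on. One group expressed full-length ZNF469 and the other ZNF469 dZF, from which most of the zinc fingers are deleted, with 3 libraries each, and each construct was in a line of its own, so that a difference between constructs and a difference between lines cannot be told apart. The authors' enriched regions came as 1 pooled list per group, with 19108 and 54 records, without values per library, so no comparison below has a replicate error or a test.

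The reference sequence (hg38, forward strand) around the sites of TGACTCA, the letters that AP-1 factors such as FOS and JUN recognise, is shown for the records off the GATA4 locus. This word was searched on both strands, within 100 bp of the summit, the position of highest signal. It was found there in 8 of the 13 member records, against 32.3% of all full-length records. TGACTCA is in capitals. The HGF pair lies in its record but more than 100 bp from the summit, and the last line, from the first intron of NR1H4, is the sequence at a summit without the word.

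HGF, chr7:81685048-81685108: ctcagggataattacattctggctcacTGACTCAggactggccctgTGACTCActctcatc
PPARG intron, chr3:12400971-12401031: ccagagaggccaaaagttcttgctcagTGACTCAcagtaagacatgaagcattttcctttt
PPARG exon, chr3:12405976-12406036: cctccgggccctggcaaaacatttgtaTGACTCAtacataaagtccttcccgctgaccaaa
LHX2, chr9:124054778-124054838: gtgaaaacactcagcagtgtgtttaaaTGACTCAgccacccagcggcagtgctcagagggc
RELN intron 8, chr7:103718894-103718954: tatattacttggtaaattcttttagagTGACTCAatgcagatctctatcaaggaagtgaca
RELN intron 6, chr7:103735447-103735507: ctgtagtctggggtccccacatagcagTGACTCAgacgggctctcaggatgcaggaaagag
NR1H4 window, chr12:100576906-100576966: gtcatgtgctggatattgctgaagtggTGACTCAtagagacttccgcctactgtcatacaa
NR1H4 intron 1, chr12:100481282-100481342: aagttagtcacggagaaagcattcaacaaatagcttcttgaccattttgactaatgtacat

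The first question was how common such records were around genes at large. Of all 20033 protein-coding genes, 65.1% had at least 1 full-length record in the body plus 50 kb, against 6 of the 9 members (66.7%). Within the gene body alone the shares were 33.6% of all genes and 4 of the 9 members (44.4%), namely PPARG, RELN, NR1H4 and GATA4. Both counts stood near the background share. The 9 windows together covered 1.99 Mb with 6.53 records per Mb, and the genome, without unsequenced bases, had 6.5 records per Mb. In records per 100 kb of window, where a gene's neighbours share its records, the members had 0.652 and all protein-coding genes 1.02.

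**Figure D1:**
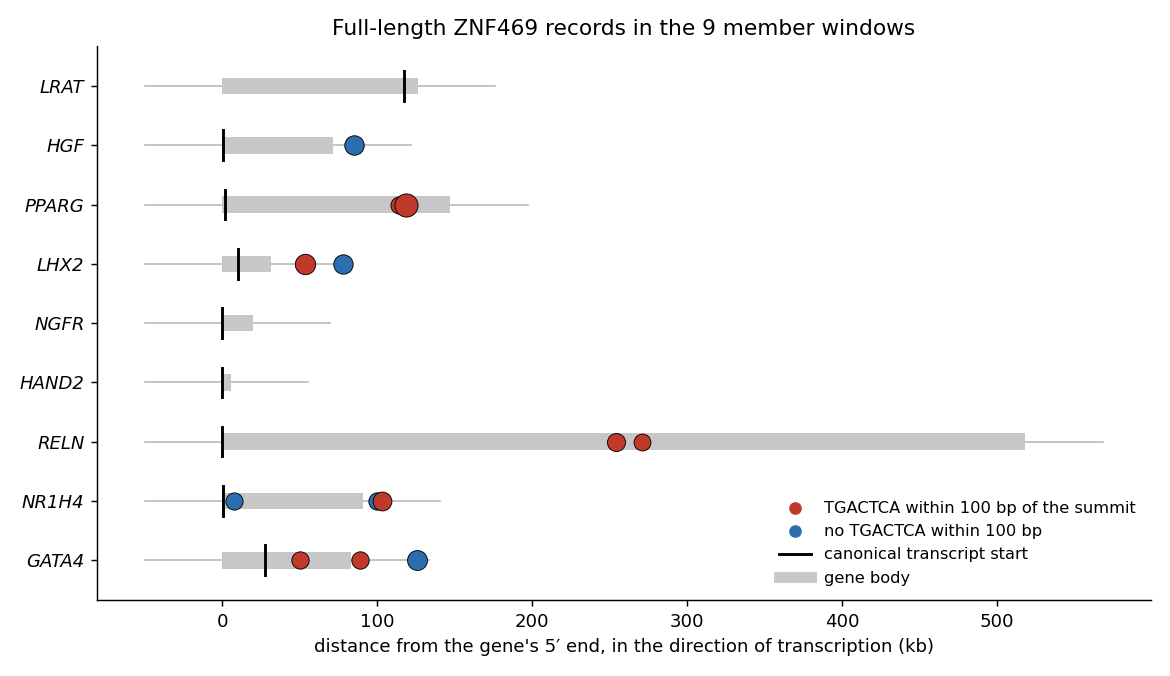
Each line is the window of 1 gene, drawn in the direction of transcription from the gene's 5′ end (0 kb), with the body as a grey bar and the start of the canonical transcript as a black tick; circles are full-length records, with an area in proportion to fold enrichment, in red where TGACTCA lies within 100 bp of the summit. The 13 records lie in the bodies or 3′ flanks of 6 genes, none lies upstream of a gene, and LRAT, NGFR and HAND2 are bare.

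Among the members, as among all protein-coding genes, fewer genes had a record near a transcript start than in the body or the window. Within 3 kb of any annotated transcript start of the gene, 27.5% of all protein-coding genes had a full-length record, and so did 1 of the 9 members (11.1%). That 1 gene was PPARG, and the start in question belongs to PPARG-223, a transcript annotated as a retained intron deep in the gene. Counted from the canonical start only, the share was 21.7% of all genes and 0 of the 9 members. With only 9 genes, counts of 1 and 0 are too small to set apart from these shares, and no difference was tested. The distance from the canonical start to the nearest summit ranged from 7.45 kb for NR1H4, through 22.9 kb for GATA4, 43.1 kb for LHX2, 80.4 kb for NGFR, 84.8 kb for HGF, 95.4 kb for PPARG and 160.0 kb for HAND2, to 254.0 kb for RELN and 649.0 kb for LRAT. For LRAT, PPARG, NGFR and HAND2 that nearest summit lies outside the window.

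Among the retinoid genes, LRAT (ENSG00000121207, chr4:154626945-154753120, forward strand) was the most isolated member. Its window of 226 kb had 0 records, the nearest record before the gene was 950 kb away, and the nearest after it was 639 kb away. Of protein-coding genes, 2.55% (510) lay at least 639 kb from any full-length record, the median for the 13297 genes without a record in the body being 55.4 kb. LRAT is the extreme of 9 genes, and the other bare members stood at 16.3% (HAND2) and 27.2% (NGFR). The LRAT window has 31 TGACTCA words, none of which could be in a record, since the window has 0 records.

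HGF (ENSG00000019991, chr7:81699010-81770438, reverse strand) had 1 record, chr7:81684840-81685387, which lies 13.6 kb beyond the 3′ end of the gene. The nearest start of a protein-coding transcript is that of HGF itself, 84.8 kb away, but the record sits inside CDHR17P, a transcribed unitary pseudogene that runs alongside. Here 27 fragments overlapped the summit (95% Poisson interval 17.8 to 39.3) over a local background of 2.38, a fold enrichment of 8.29 and a −log10 p of 19.94. By −log10 p, 74.9% of all full-length records were below it. It holds 2 TGACTCA words, at 146 and 127 bp before the summit, so it does not count among records with the word within 100 bp.

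NGFR (ENSG00000064300, chr17:49495293-49515008, forward strand) had 0 records in a window of 120 kb. The nearest records lay 80.0 kb before the gene and 132 kb after it, and 27.2% of protein-coding genes were at least as far from a record. The record before the gene is within 100 kb of it and the record after it is not. The NGFR window has 27 TGACTCA words, and with 0 records in it none could be in a record.

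RELN (ENSG00000189056, chr7:103471381-103989658, reverse strand), at 518 kb the longest member, had 2 records, both in introns and 16.1 kb apart. The record chr7:103735356-103735864 lies in intron 6 of the 65-exon canonical transcript, 254 kb from the start, with 18 fragments over a background of 1.67, a fold of 7.12 and a −log10 p of 13.55. The record chr7:103718729-103719242 lies in intron 8, with 17 fragments over a background of 1.9, a fold of 6.22 and a −log10 p of 11.59. The fold of 6.22 was the lowest among the 13. Both have TGACTCA within 100 bp, at 19 bp after the summit in intron 6 and at 66 bp before it in intron 8. Of the 89 TGACTCA words in the RELN window, 3 were in these records.

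PPARG (ENSG00000132170, chr3:12287368-12434356, forward strand), the nuclear receptor best known for fat storage, had the record with the highest fold, −log10 p and fragment count of the 13. The record chr3:12405779-12406138 had 30 fragments at the summit (95% Poisson interval 20.2 to 42.8) over a background of 1.65, a fold of 11.71 and a −log10 p of 27.88, with 96.7% of all full-length records below it in fold. It lies over a coding exon, exon 6 of the 8-exon canonical transcript PPARG-217 (chr3:12405882-12406081), and covers all of its 200 bp. Its TGACTCA starts 60 bp after the summit, at chr3:12406003-12406009, and so falls within the coding sequence, at codons 217 to 219 of 475. The record is wider than the exon (360 bp), and the summit lies inside it.

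The other PPARG record, chr3:12400759-12401136, lies 4.64 kb away in intron 5, with 16 fragments (9.15 to 26.0) over 1.64, a fold of 6.45 and a −log10 p of 11.58. The Poisson intervals of the PPARG pair overlap, 30 fragments against 16. Its TGACTCA starts 46 bp before the summit. Neither is near the start of a coding transcript: the summits lie 112.0 and 116.9 kb downstream of the canonical start, 49.6 and 54.5 kb downstream of that of PPARG-201, and 21.2 and 26.1 kb downstream of that of PPARG-230, the nearest start of any transcript annotated as protein coding.

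NR1H4 (ENSG00000012504, chr12:100473708-100564414, forward strand) had 1 record in the gene and 2 beyond its 3′ end. The record in the gene, chr12:100481211-100481474 in intron 1, had the lowest −log10 p and the fewest fragments of the 13, with 11 fragments (5.49 to 19.7) over a background of 0.865, a fold of 6.43 and a −log10 p of 9.78. Its background equals the lowest value anywhere in the full-length list, and it has no TGACTCA. The 2 others belong by position to GAS2L3, a cytoskeleton-linking protein gene whose body (chr12:100573683-100628288) begins inside the window. The record chr12:100573498-100573737 has its summit 0.092 kb from the GAS2L3 start, in sequence of 72.1% G+C with 24 CpG, with 16 fragments, a fold of 6.55, a −log10 p of 11.75 and no TGACTCA. The record chr12:100576759-100577177, 3.1 kb from that start, had 19 fragments, a fold of 7.73 and a −log10 p of 15.03, and its TGACTCA starts 22 bp after the summit.

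Of the transcription factors, LHX2 (ENSG00000106689, chr9:124001670-124033301, forward strand) had both of its records beyond the 3′ end, outside any annotated gene. The nearer one, chr9:124054670-124055139, lies 21.4 kb past the gene with 17 fragments over a background of 0.989, a fold of 9.05 and a −log10 p of 16.3, and its TGACTCA starts 60 bp before the summit. The farther one, chr9:124079057-124079493, lies 45.8 kb past the gene with 19 fragments over 1.44, a fold of 8.19, a −log10 p of 15.8 and no TGACTCA. The LHX2 start itself is the nearest protein-coding start to both, and upstream of the gene there was no record for 1010 kb. HAND2 (ENSG00000164107, chr4:173524969-173530229, reverse strand), the shortest member at 5.26 kb, had 0 records in 105 kb, the nearest being 155 kb after it and 669 kb before it. Of protein-coding genes, 16.3% lay at least as far from a record as HAND2.

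GATA4 (ENSG00000136574, chr8:11676959-11760002, forward strand) had 3 records, of which 1 is in the gene. That record, in intron 2 at chr8:11726892-11727300, lies 22.95 kb from the canonical start and had 12 fragments over a background of 0.989, a fold of 6.54, a −log10 p of 10.26 and a TGACTCA 15 bp after the summit. The record chr8:11765377-11765645, 5.38 kb past the gene, had 13 fragments, a fold of 6.60, a −log10 p of 10.69 and a TGACTCA 59 bp before the summit. Its nearest protein-coding start is that of NEIL2, a DNA glycosylase gene, at 4.13 kb. The record chr8:11802419-11802897 had 19 fragments, a fold of 8.63 and a −log10 p of 16.53, without TGACTCA. Its summit lies 0.096 kb from a start of FDFT1, the squalene synthase gene (0.192 kb from that of a protein-coding transcript), and 0.021 kb from that of the noncoding ENSG00000255046, in sequence of 63.7% G+C.

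Where a record's nearest protein-coding start (from transcripts annotated as protein coding) was asked for, it was the member's own in 9 of the 13 cases. Those 9 still came from 6 members, and the share of all protein-coding genes counted in this way is not given here. The other 4 were nearest to GAS2L3, in both cases in the NR1H4 window, and to NEIL2 and FDFT1 in the GATA4 window. A record in a window is thus not assigned to the member by anything but distance.

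**Figure D2:**
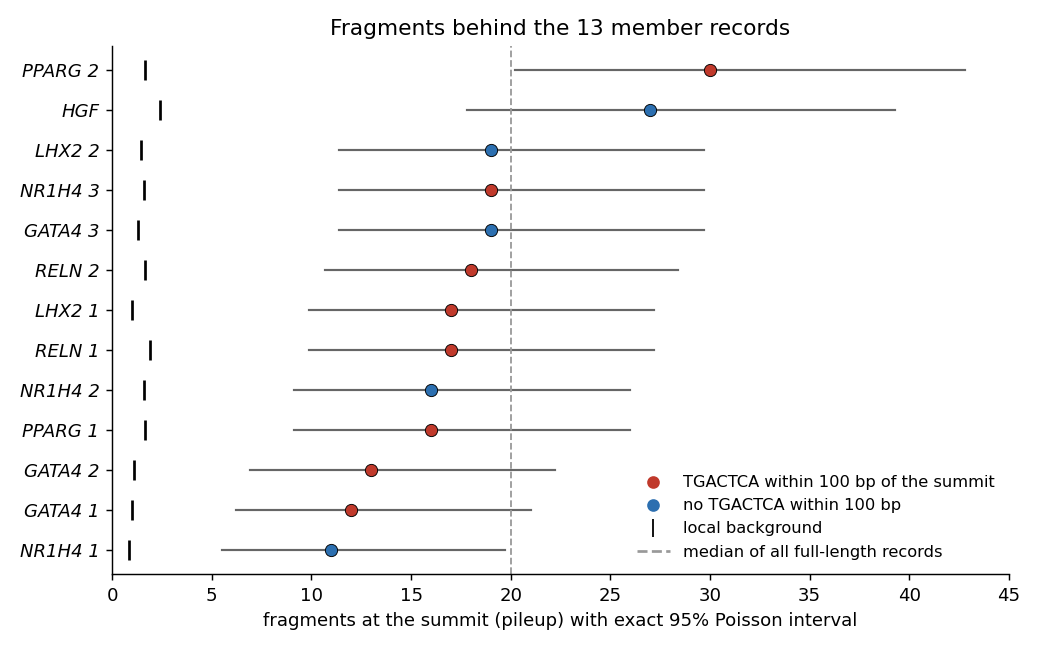
Fragments at the summit of each member record (circles, red where TGACTCA lies within 100 bp) with exact 95% Poisson intervals, local background (black ticks) and the median of all full-length records (dashed line at 20); records of 1 gene are numbered by increasing coordinate. The intervals of 11 of the 13 records include 20, that of the PPARG exon record (PPARG 2) begins at 20.2, and that of the record in NR1H4 intron 1 (NR1H4 1) ends at 19.7.

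As a group the member records were of ordinary to slightly low strength within the full-length list. The fold enrichment, which is the fragment pileup over the local background with 1 added to each, had a median of 7.12 (6.22 to 11.71) against 7.36 over all 19108 records. The median −log10 p was 13.55 against 15.05, the median pileup 17 against 20 fragments, and the median width 419 against 440 bp. These quantities all derive from the same fragments and are not separate evidence. The score is a rescaling of the irreproducible discovery rate (IDR, a measure of agreement between repeated peak lists) with a ceiling of 1000. Whether the lists compared were those of single libraries is not known here. The score was 1000 for the HGF record, the PPARG exon record and the nearer LHX2 record, and had a median of 716 against 841. At a score of 830 or more, 4 of the 13 remained (HGF, the PPARG exon, LHX2 and the record at the GAS2L3 start), against 51.5% of the whole list.

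**Figure D3:**
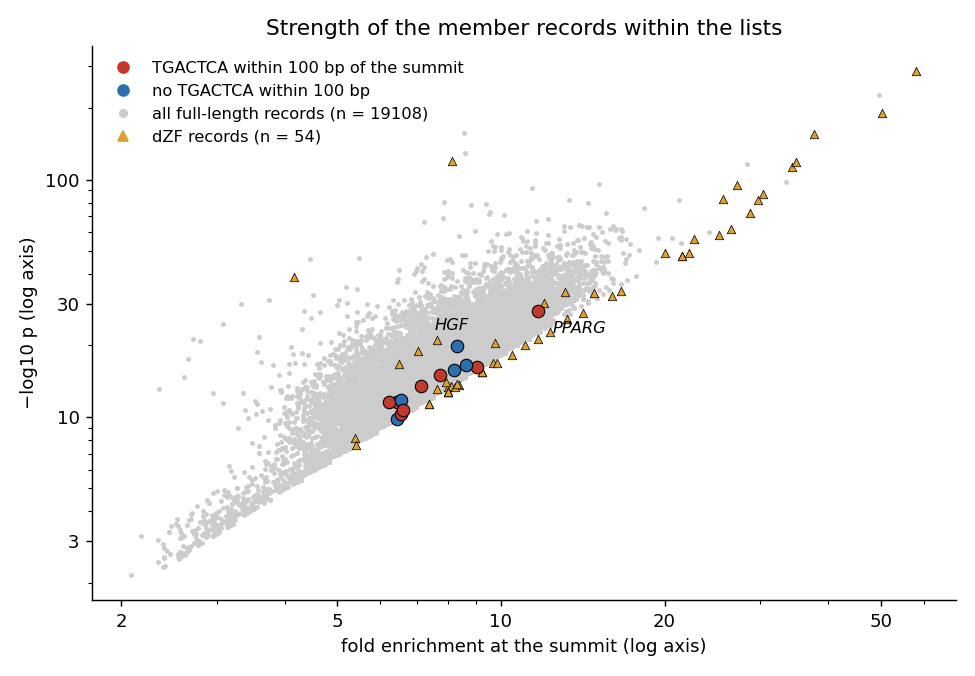
Fold enrichment and −log10 p (log axes) for all 19108 full-length records in grey, the 54 dZF records as triangles, and the 13 member records as circles, red where TGACTCA lies within 100 bp of the summit. The PPARG exon record (fold 11.71) and the HGF record (−log10 p 19.94) stand above the other member records, whose −log10 p runs from 9.78 to 16.53.

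TGACTCA lay within 100 bp of the summit in 8 of the 13 member records (61.5%, exact 95% binomial interval 31.6 to 86.1), against 32.3% of all full-length records. The interval covers counting error only and its lower end lies below the share of the list, so the excess is not resolved with 13 records. The 8 comprised both PPARG, both RELN, 1 LHX2, 1 NR1H4-window and 2 GATA4-window records. In the list as a whole the word was found in 38.3% of records beyond 3 kb of the start of a protein-coding transcript and in 14.1% of those within it, and among the members it was in 8 of 11 and 0 of 2. With any transcript start of a protein-coding gene, the list had 38.4% and 17.8%, and the members 7 of 10 and 1 of 3. The definition by protein-coding transcripts was added after seeing the data. Within 50 bp of the summit the shares were 4 of 13 (30.8%) against 19.3%, and over whole records 9 of 13 (69.2%) against 44.1%.

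Most occurrences of the word lay outside any full-length record, in member windows as elsewhere. The 9 windows hold 316 TGACTCA words, of which 11 were in a full-length record (3.48%, 1.75 to 6.14), against 2.27% of the 462326 in the genome. The bare genes have the word in their windows too, 31 times at LRAT, 27 at NGFR and 14 at HAND2. The other 6 have 18 (LHX2) to 89 (RELN). Per 100 kb of window, HAND2 with 13.3 and LRAT with 13.7 were at the low end of the 9, LHX2 also having 13.7, and NGFR with 22.6 was the highest. RefSeq promoters (GRCh38.p14, short stretches around a transcript start) were given for 7 of the members, 12 sequences in all. Of these, 0 contain TGACTCA, against 4.95% of 35116 promoters, and 12 sequences are too few to set apart from so small a share. A match is a description of the letters and not evidence of a bound factor.

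Other words searched in the same stretch, on both strands, were met at shares whose intervals include those of the list. The core GGAATG of TEAD factors was in 4 of the 13 records (30.8%, against 21.1%), TGTGGT of RUNX factors in 2 (15.4%, against 17.5%) and the E-box CAGATG in 3 (23.1%, against 15.4%). The E-box is of the kind HAND factors bind, and the 3 records with it were both LHX2 records and the GATA4-window record near NEIL2. TGACGTCA, the related word of CREB and ATF factors, was in 0 of the 13 and 0.691% of the list.

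The dZF list had 0 records in all 9 windows, against 0.21% of protein-coding genes (42) with a dZF record in theirs. The list has only 54 records, so a window without one is the rule for any gene, and 0 of 9 says nothing particular about the members. The nearest dZF records were 7880 kb from LRAT, 16600 kb from HAND2, 22600 kb from NGFR, 25300 kb from HGF, 25900 kb from GATA4, 47100 kb from RELN and 164000 kb from PPARG, and there was none on the chromosomes of LHX2 and NR1H4. None of the 54 dZF records has TGACTCA within 100 bp of the summit. Library depth was not given. Local background bottomed out at 0.865 fragments for full-length and 0.625 for dZF, a ratio of 1.38, and with fragments and background divided by it 12 of the 13 member records kept a −log10 p above 7.62, the lowest in the dZF list, as did 89.1% of all full-length records. The exception was the record in NR1H4 intron 1, at 7.57. The value 7.62 is only the lowest of 54 records and not a calling threshold, the full-length list reaching down to 2.16. The scaling therefore does not show which records would be called at the depth of the dZF libraries.

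**Figure D4:**
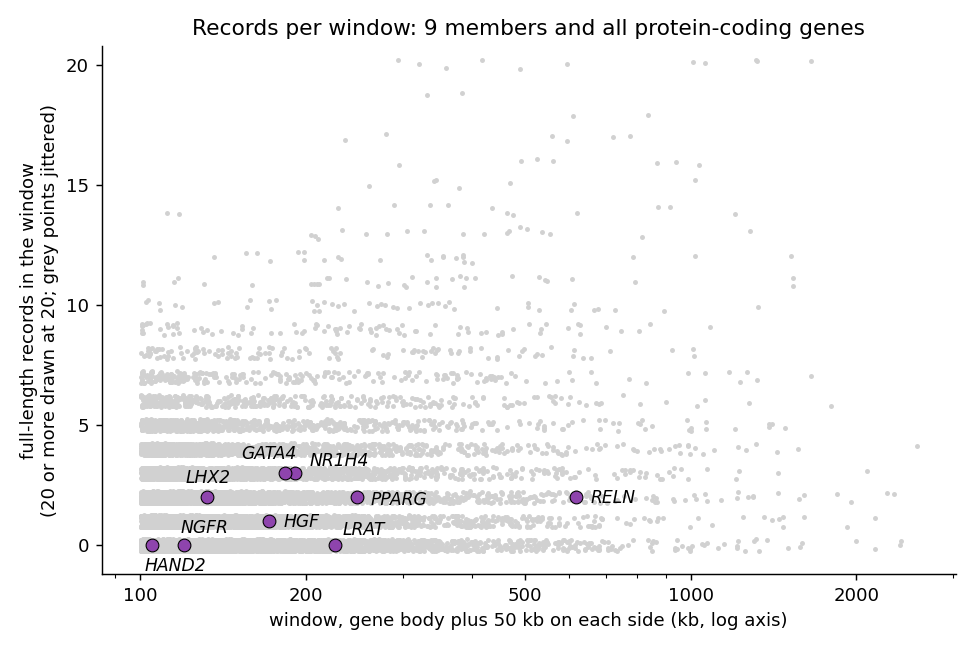
Number of full-length records in the window (body plus 50 kb on each side) against window length (log axis) for all 20033 protein-coding genes in grey, jittered vertically, and for the 9 members in purple. The members have 0 to 3 records, and RELN, with the longest window (618 kb), has 2.

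The members also lay within the range of genes at large, where the median window had 1 record, the upper quartile 3 and the highest 33. The member median was 2. Window length did not order the members: RELN with 618 kb had as many as LHX2 with 132 kb, and LRAT with 226 kb had none.

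Genes of the same pathways, from lists drawn up with earlier results of these data known, were counted in the same way. Among all protein-coding genes, 65.1% had a window record and 27.5% had one within 3 kb of a transcript start. Of 25 genes for retinoid handling and lipid storage, 20 (80%) had a record in the window and 8 (32%) within 3 kb of a transcript start. RARB, the retinoic acid receptor beta gene, had 8 window records, ALDH1A2, which makes retinoic acid, had 6, and RARA, the alpha receptor, had 4. The starts with the most fragments were those of RARA (59 fragments, fold 12.2), ALDH1A2 (35, fold 12.2), STRA6, the cell-surface retinol transporter (31, fold 9.83), LIPE, the hormone-sensitive lipase (22, fold 10.1), and RARB (20, fold 6.29). These are the 5 of the 8 with the most fragments. RBP4, LPL, DGAT1 and RXRG were among those with none in their windows.

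Of 17 genes for growth factor, neurotrophin and reelin signalling, 9 (52.9%) had a window record and 3 (17.6%) one at a start. DAB1, the intracellular adaptor of the reelin receptors, had 7 in a window of 1650 kb, and the neurotrophin receptor gene NTRK3 had 6. The 3 with a record at a start were LRP8, a reelin receptor (35 fragments, fold 12.6), DAB1 (32, fold 12.3) and MET, the receptor of HGF (22, fold 5.55). MET had 5 window records where its ligand had 1. NTRK2, BDNF, VEGFA and CXCL12 were among the 8 without.

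Of 24 other transcription factors and nuclear receptors, 16 (66.7%) had a window record and 8 (33.3%) one at a start. ETS1 had 10, IRF1, an interferon-responsive factor, had 8, and VDR, the vitamin D receptor, had 6. At starts the most fragments were at NR2F2 (69, fold 8.94), ETS1 (35, fold 6.77), NR2F1 (33, fold 5.48), IRF1 (33, fold 9.06) and CEBPB (29, fold 8.04), and NR2F1 and NR2F2 encode orphan nuclear receptors. TCF21, WT1, FOXF1, GATA6, HAND1, LHX9, CEBPA and PPARA had none. HAND1 and LHX9, the closest relatives of HAND2 and LHX2, are among these.

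Of 16 further markers of the resting stellate cell, 13 (81.2%) had a window record and 5 (31.2%) one at a start. PCDH7, a protocadherin, had 8, ECM1, a secreted matrix protein, had 6 and ALCAM, an adhesion molecule, had 5. The 5 with a record at a start were ALCAM (39 fragments, fold 5.60), PCDH7 (25, fold 4.68), GFAP, the glial filament protein (18, fold 6.15), ECM1 (18, fold 8.82) and PTH1R, the parathyroid hormone receptor (14, fold 6.97). The 1 of 9 members with a record at a start stands beside 17.6% to 33.3% in these 4 lists, and no difference between them was tested.

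Genes of the activated stellate cell were counted for comparison. All 20 had a window record, against 65.1% of all protein-coding genes, and 14 (70%) had one at a start, against 27.5%. They had 3.75 records per 100 kb of window, against 0.652 for the members and 1.02 for all protein-coding genes. COL1A1 and LOXL2 had 14 window records each and COL3A1 had 10, out of 95 over the 20 windows. At starts, the fragments and folds were 277 and 8.54 for COL3A1, 138 and 4.45 for COL1A1, 46 and 6.32 for TPM1, and 43 and 8.15 for VIM. The highest fragment count in a member record was lower, at 30, but the fold of that record, 11.71, was above all 4, and the fold at the COL1A1 start was below that of every member record. These genes were listed with their records already known, so the contrast is a description of the lists and was not tested. None of the 5 lists had a dZF record in a window.

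**Figure D5:**
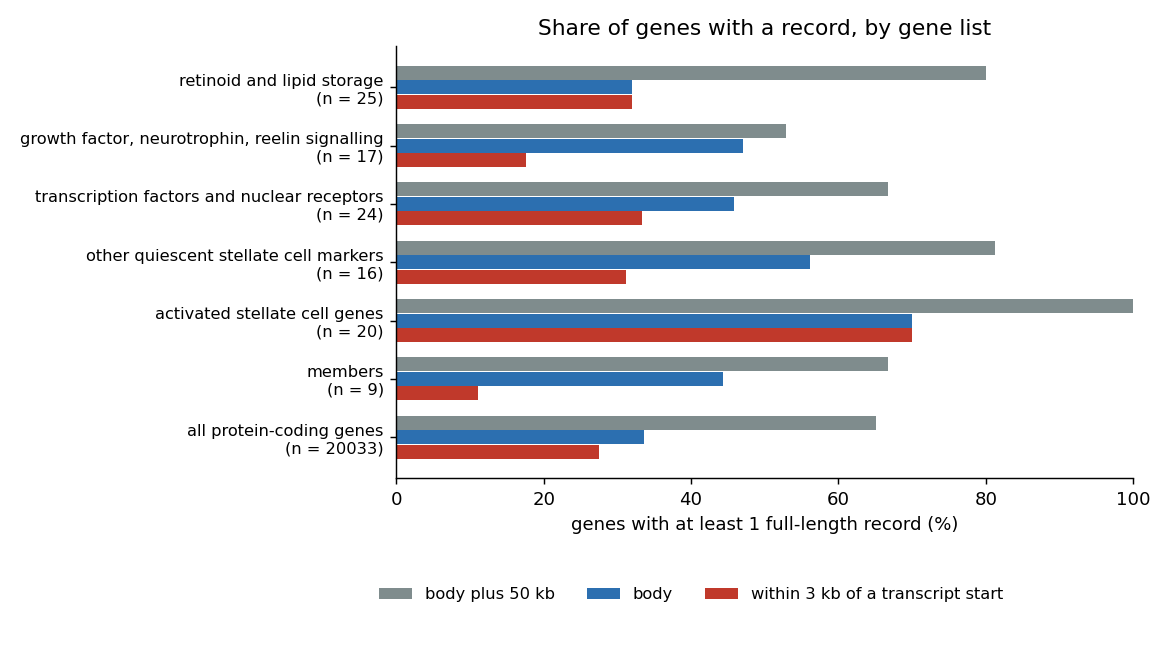
Percentage of genes with at least 1 full-length record in the body plus 50 kb (grey), in the body (blue) and within 3 kb of a transcript start (red), for the members, 5 gene lists and all protein-coding genes. The members stand at 66.7%, 44.4% and 11.1%, and the activated stellate cell genes at 100%, 70% and 70%.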

How the data were processed

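CUT&RUN libraries of LX-2 cells (2 groups of 3, grouped by the construct named in the sample titles) were processed by the authors. The submitters' notes list bcl2fastq, Bowtie2 2.3.4.3, MACS2 2.2.5, deepTools 3.5.1 and R 4.2.1 with hg38; peaks of the libraries of a group were deposited as 1 pooled list after a reproducibility (IDR) step. Each deposited record has a score (540 to 1000 for full-length, from the IDR), a fold enrichment at the summit, a −log10 p and a summit offset. The deposited −log10 p and fold together gave a whole number of fragments for 100% of records (largest miss 6.9e-05 in −log10 p); the authors' files give no library depth and no counts per library.

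Records were intersected (1 bp or more) with GENCODE 44 genes plus 50 kb, chromosomes 1 to 22, X and Y, in Python 3.11.15 (pandas 2.3.3, numpy 2.4.6, scipy 1.17.1), and TGACTCA and the other words were read from hg38. The steps were checked on simulated data. The members and gene lists were chosen with earlier results of these data known. All 9 members and 13 records are named; of each list, the 3 genes with most window records and at most 5 with the highest pileup within 3 kb of a transcript start, and genes without records or nearest to one were named after their values were seen. A few genes that this rule would name are not reported here. The canonical-start count, the scaling by background and the counts by nearest start, also from protein-coding transcripts only, were added after seeing the data. Intervals cover counting error only, and fragments that are PCR copies are not independent. No test was made, since a group is 1 list.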

Additional observations from a re-analysis of the deposited data

How the results depend on the processing

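Of 44 recomputed values of 6 results, 37 stayed within 1.5 times the reported count or median, or within the interval of the reported share, and 7 moved. The 13 member records became 6 in gene bodies only, 20 with a 100 kb flank, 6 in the upper 50% of the list by fold, 2 in its upper 25% and 4 at a score of 830 or more. The 6 members with a record became 2 (PPARG and LHX2) in the upper 25% by fold, where 33.7% of protein-coding genes had one. With a 100 kb flank they became 7, NGFR being added. A wider flank can only add genes, and the share of all protein-coding genes at 100 kb is not given here, so the 7 cannot be set against it. LRAT and HAND2 stayed without a record in all settings, as did every window for dZF, but no setting could have changed this. The nearest full-length records lay 639 kb from LRAT and 155 kb from HAND2, and no dZF record lay within 7880 kb of a member. These distances exceed the widest flank, and the other settings can only remove records. The 37 values that stayed include the dZF counts of 0. The share with TGACTCA moved from 61.5% to 30.8% within 50 bp of the summit, a shorter stretch to search, and ran from 50% to 83.3% in the other settings. Median fold ran from 6.49 to 8.67 and median −log10 p from 11.6 to 18.1. Counting only records whose nearest protein-coding start is the member's own, chosen after seeing the data, gave 9 records, 6 members and a share of 66.7%. For this count too the share of all protein-coding genes is not given here.

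No paired analysis was possible because the 3 libraries of a group are merged in 1 list, and for that reason none was left out in turn. Records of 11 to 30 fragments have Poisson intervals that are wide relative to their counts, and only those of the PPARG exon record (from 20.2) and of the NR1H4 intron 1 record (up to 19.7) do not overlap, so most of the order among the 13 is within counting error.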
